A study of Mus musculus with 28 samples.

Results

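Messenger RNA was compared between resident peritoneal macrophages of mice that had received lipopolysaccharide (LPS) 3 weeks earlier and those of mice that had received PBS. The comparison takes the arrays whose titles name LPS or PBS with 3 weeks, 4 of each, which are 8 of the 28 arrays of the series. Mice of both groups were wild type in the C57BL/6 background and were injected into a vein at 7 to 8 weeks of age, with LPS of Escherichia coli O111:B4 or with PBS. Per the treatment protocol the macrophages were taken 3 to 4 weeks later, from mice 10 to 12 weeks old. The dose of LPS is not given in the sources used here. Cells of all groups were washed from the cavity without thioglycollate, kept overnight in Macrophage-SFM and freed of non-adherent cells, so that the RNA is that of cultured, adherent cells. Beside them stand 12 arrays of wild-type mice given PGN, imiquimod (IMQ) or β-glucan (BG) in the same way, and 4 arrays of wild-type mice without injection (WT). The 4 arrays of ATF7 knockout mice without injection entered the fit for its estimate of the spread. The comparison asks which differences in expression were still present weeks after exposure to LPS.

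LPS is the glycolipid of the outer membrane of Gram-negative bacteria. Macrophages bind it through CD14 and the complex of TLR4 with the product of Ly96, and TLR4 signals through the adaptor MyD88 to NF-κB and inflammatory cytokines, and through the adaptor encoded by Ticam1 to interferon-β. Type I interferons act on their receptor to activate a complex that includes STAT2 and IRF9 and binds the interferon-stimulated response element (ISRE) in the promoters of antiviral genes, while interferon-γ acts on a receptor of its own and induces guanylate-binding proteins, immunity-related GTPases and chemokines that attract T cells. Altered readiness of innate cells after a first exposure to a microbe is known as innate immune memory.

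The largest rises after LPS were in interferon-induced genes such as Cxcl10, Cxcl9, Iigp1 and Ifit3, while most called genes lay outside the interferon lists. Levels are log2 of the deposited signals, a change is the mean log2 level of the 4 LPS arrays minus that of the 4 PBS arrays, and a gene was called where limma's moderated test gave a Benjamini-Hochberg adjusted p under 0.05. Of 13512 genes tested, 589 were called higher (4.36%) and 746 were called lower (5.52%), which makes 1335 called genes (9.88%). Of the 589, 48 were in the type I interferon or interferon-γ list and 541 in neither, and 446 had a mean log2 level of up to 8. With each array centred on its own median, the split became 385 higher and 1219 lower. The changes were small: 63 called genes differed by at least 1.5-fold, 46 of them higher, and the 15 that differed by at least 2-fold were all higher. The 4 LPS arrays lay wholly above or wholly below the 4 PBS arrays for 2411 genes (17.8%), of which 980 were also called. The 8 arrays correlated with one another at 0.983 to 0.996 over all probe sets, and the first principal component of the 8 arrays carried 45.8% of their variance, with LPS replicate 2 at one end (-17.0) and PBS replicate 3 at the other (14.5).

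The count of called genes depended on single arrays. Without LPS replicate 2, 4 genes were called, and without PBS replicate 3, 172 were called. Without PBS replicate 4 the count was 440, without LPS replicate 1 it was 596 and without PBS replicate 2 it was 849. It was 1558 without LPS replicate 3, 1547 without LPS replicate 4 and 1368 without PBS replicate 1. In the fit without LPS replicate 2 the smallest adjusted p was 0.0453, and 2816 genes had an unadjusted p under 0.05, against 4453 with all arrays. The calls that follow are those of the fit over all 28 arrays. With only the 8 LPS and PBS arrays in the fit 508 genes were called, and 46 of the 95 called genes chosen for naming kept their call.

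**Figure D1:**
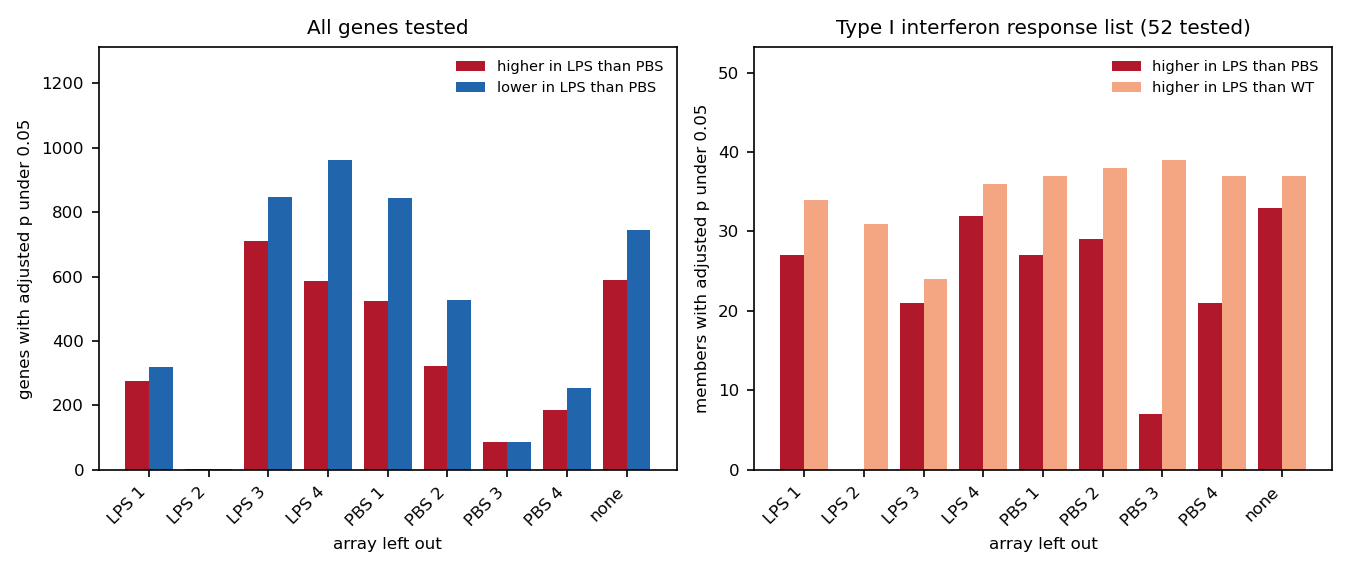
Genes with an adjusted p under 0.05 (left) and members of the type I interferon response list with an adjusted p under 0.05 (right), on the y axes, when the array named on the x axis was left out of the limma fit. The left panel falls to 4 genes without LPS 2 and to 172 without PBS 3, and on the right the list's count against WT stays between 24 and 39 of 52 members.

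The genes called in all 8 of these fits were Trafd1, which rose, and Kif3a, Abhd12 and Pam16, which fell. They were named after their values were seen, and every other call of LPS against PBS given here was lost without LPS replicate 2. Trafd1, an interferon-inducible zinc finger gene that restrains Toll-like receptor signalling, stood at 11.03, 11.09, 11.23 and 11.08 in LPS arrays, against 10.86, 10.77, 10.75 and 10.80 in PBS arrays, a log2 difference of 0.31 (SE 0.05, adjusted p = 0.00931). Kif3a, a subunit of the kinesin-2 motor, stood at 6.74, 6.61, 6.82 and 6.85 in LPS arrays, against 7.14, 7.30, 7.17 and 7.49 in PBS arrays, a log2 difference of -0.52 (SE 0.08, adjusted p = 0.00751). Abhd12, a lipase of lysophosphatidylserine, stood at 10.27, 10.24, 10.33 and 10.31 in LPS arrays, against 10.51, 10.53, 10.69 and 10.57 in PBS arrays, a log2 difference of -0.29 (SE 0.05, adjusted p = 0.00751). In these 3 genes the 2 groups of arrays did not overlap, and the spread within a group was small. Pam16, a part of the motor that imports proteins into mitochondria, averaged 8.84 ± 0.03 in LPS arrays and 9.11 ± 0.06 in PBS arrays (SD, n = 4 each), a log2 difference of -0.28 (SE 0.05, adjusted p = 0.00751). The WT means were 11.06 for Trafd1, 6.67 for Kif3a, 10.30 for Abhd12 and 8.85 for Pam16, all nearer to the LPS mean than to the PBS mean. A further 122 genes were called in all fits but the one without LPS replicate 2, among them Cxcl10, Cxcl9, Ifit3, Gbp2b, Irf7, Zbp1, Rtp4, Oasl2, Orm1, Ms4a4a, Nxpe5, Plcb1 and Arg2.

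Of 52 type I interferon response genes tested, 33 rose and the others did not pass the test, where 4.36% of all genes rose; 50 of the 52 changes were above 0. Their median change was 0.46, against -0.01 over all genes tested. Ifit3, whose product binds viral RNA together with its family members, stood at 10.02, 10.42, 10.60 and 9.57 in LPS arrays, against 8.93, 9.28, 8.40 and 8.84 in PBS arrays, and was 2.44-fold higher, a log2 difference of 1.29 (SE 0.26, adjusted p = 0.0128). Ifit2 of the same family stood at 8.99, 9.41, 9.38 and 8.38 in LPS arrays, against 7.85, 8.38, 7.05 and 7.60 in PBS arrays, 2.5-fold higher (adjusted p = 0.018). The lowest LPS array of Ifit2 was replicate 4, and the highest PBS array was replicate 2, and these 2 were almost level. Irf7, the transcription factor that amplifies interferon production, stood at 10.21, 10.46, 10.66 and 10.63 in LPS arrays, against 9.43, 9.57, 9.45 and 9.91 in PBS arrays, 1.86-fold higher, a log2 difference of 0.90 (SE 0.19, adjusted p = 0.014). An exact two-sided permutation test of Irf7 gave p = 0.0286, the smallest that 4 against 4 arrays allow. Every gene whose groups do not overlap takes this value, as 2411 genes (17.8%) did, so it says no more than that.

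Zbp1, a sensor of Z-form nucleic acid that can start cell death, averaged 9.77 ± 0.18 in LPS arrays and 8.88 ± 0.16 in PBS arrays (SD, n = 4 each), a change of 0.89 (adjusted p = 0.0137). Oasl2, of the oligoadenylate synthetase family, stood at 11.19, 11.47, 11.61 and 11.26 in LPS arrays, against 10.59, 10.78, 10.39 and 10.73 in PBS arrays, a change of 0.76 (adjusted p = 0.0137). Every LPS array of Oasl2 lay above every PBS array. Rtp4, an interferon-induced receptor transporter protein, averaged 10.35 ± 0.19 in LPS arrays and 9.59 ± 0.27 in PBS arrays, and Stat2, a transcription factor of the type I interferon response, averaged 9.54 ± 0.19 in LPS arrays and 8.95 ± 0.11 in PBS arrays (SD, n = 4 each), with changes of 0.76 (adjusted p = 0.0137) and 0.59 (adjusted p = 0.0175). Bst2, which tethers budding virus particles to the cell, changed by 0.46 (adjusted p = 0.0399), and Trim30a, a TRIM-family regulator of NF-κB signalling, by 0.39 (adjusted p = 0.0252). Of the list of interferons, their receptors and transducers, 12 were tested: Stat2 rose, and Ifngr1, a chain of the interferon-γ receptor, fell by 0.16 (adjusted p = 0.0367).

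The size of the interferon change held without the arrays that the calls needed, and the calls did not. Without LPS replicate 2 the median change of the 52 members was 0.45, with no member called by limma. In that fit 43 members were higher at an unadjusted p under 0.05, as were 1346 of all 13512 genes. Without PBS replicate 3 the median change was 0.37 with 7 called. Over all 8 fits that left out 1 array the median ran between 0.36 and 0.53. Set against the WT arrays in place of PBS, 37 of the 52 members were higher after LPS, and 24 to 39 of them when 1 LPS or PBS array was left out, with 31 without LPS replicate 2. The share of all genes called higher than WT was 6.39%. Both comparisons use the same 4 LPS arrays. Averaged over the list, the level was 9.53 ± 0.18 in LPS arrays, 9.25 ± 0.15 in PGN arrays, 9.29 ± 0.23 in IMQ arrays, 9.36 ± 0.16 in BG arrays, 9.03 ± 0.14 in PBS arrays and 8.98 ± 0.16 in WT arrays (SD, n = 4 each). The lowest LPS array stood at 9.36 and the highest PBS array at 9.17.

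**Figure D2:**
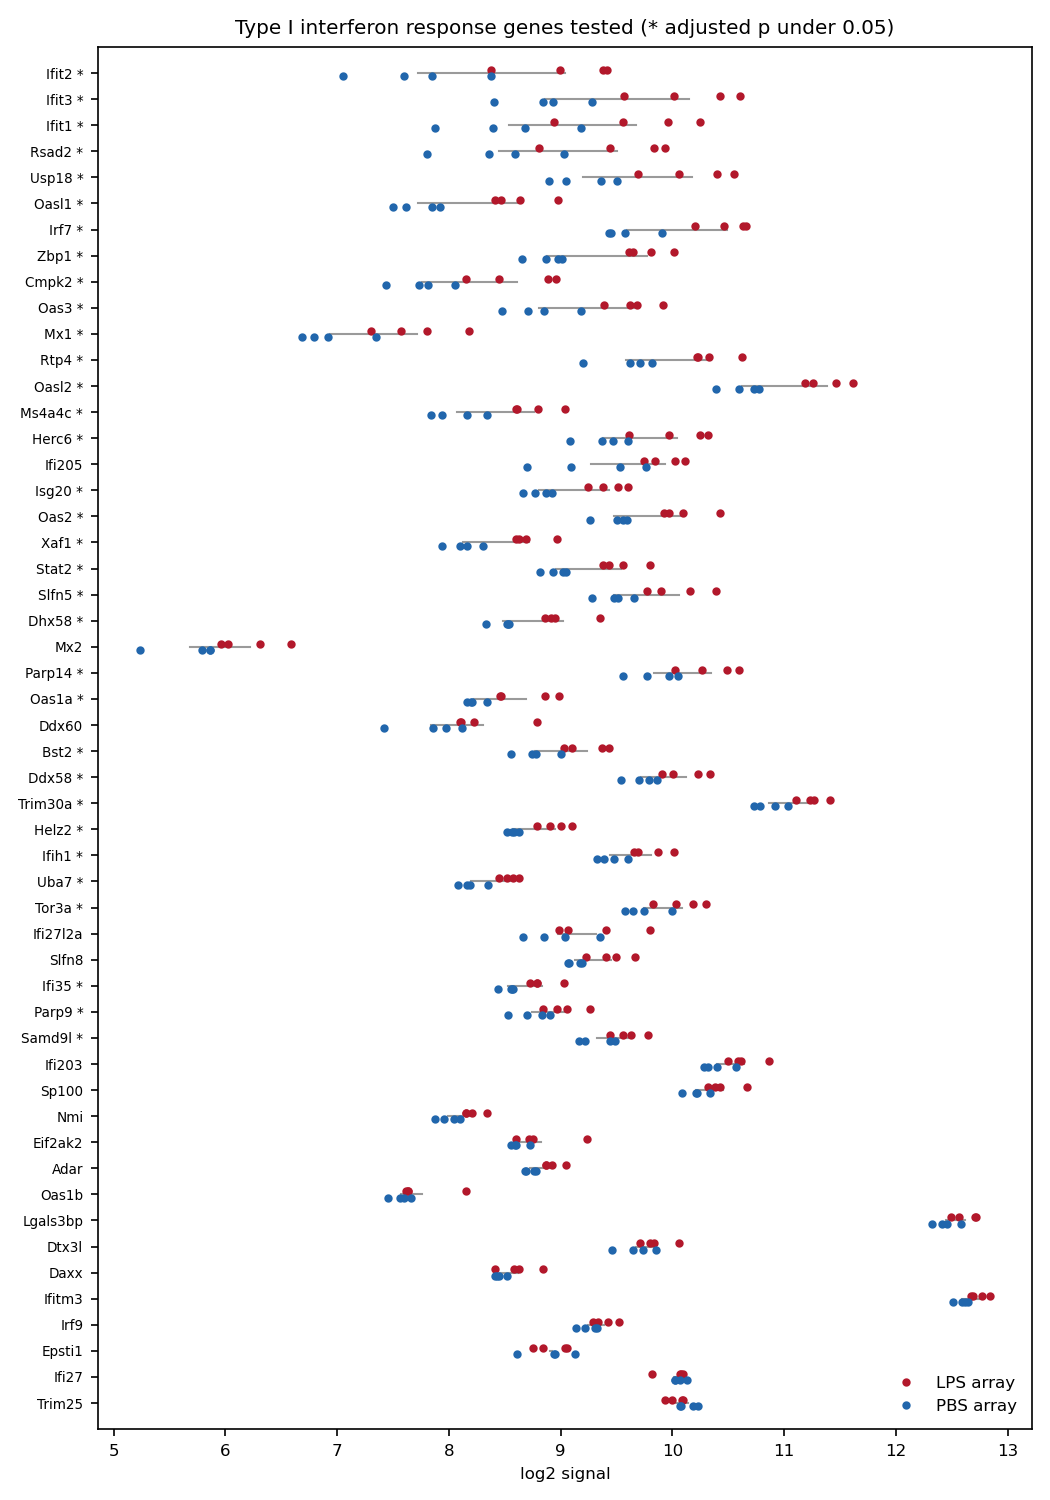
Log2 signal (x axis) of each tested member of the type I interferon response list (y axis) on the 4 LPS arrays (red) and the 4 PBS arrays (blue), with a line between the group means. Members are ordered by change, from Ifit2 at 1.32 to Trim25 at -0.11, and the 33 with an asterisk had an adjusted p under 0.05.

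The promoter windows of these genes, which run from 250 bases before to 50 after each start in RefSeq (GRCm38.p6), were searched for the ISRE-type letters GAAANNGAA on both strands. Of the 39 tested type I interferon genes with a window, 20 held the letters (51.3%), against 888 of 10740 tested genes with a window (8.27%) and 8.56% of all 32851 windows. The share was much the same among type I genes called higher, 12 of 24 (50%). In the interferon-γ list 10 of 16 tested genes held the letters, and 7 of 8 called higher. The 6 stretches that follow are those of the interferon-induced genes with the largest rises that held the letters, read 5′ to 3′ along the strand of the gene, with the matches on either strand in capitals. Genes of a single mouse chromosome were left out of this choice. The stretches are shown because these genes moved together, and a part of the letters in that was not tested.
Cxcl10, chr5:92349054-92349139, minus strand: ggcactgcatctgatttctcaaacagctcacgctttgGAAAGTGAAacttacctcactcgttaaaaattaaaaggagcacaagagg
Cxcl9, chr5:92328206-92328294, minus strand: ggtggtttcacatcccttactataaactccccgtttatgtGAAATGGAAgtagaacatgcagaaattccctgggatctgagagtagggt
Ifit3, chr19:34583334-34583422, plus strand: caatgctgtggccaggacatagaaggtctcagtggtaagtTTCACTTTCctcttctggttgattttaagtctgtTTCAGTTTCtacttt
Gbp5, chr3:142496730-142496818, plus strand: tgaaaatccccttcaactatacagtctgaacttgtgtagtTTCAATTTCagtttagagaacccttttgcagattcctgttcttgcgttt
Ifit1, chr19:34640740-34640828, plus strand: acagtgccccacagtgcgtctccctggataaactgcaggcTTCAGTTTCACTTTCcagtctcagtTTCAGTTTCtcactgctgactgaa
Rsad2, chr12:26456523-26456611, minus strand: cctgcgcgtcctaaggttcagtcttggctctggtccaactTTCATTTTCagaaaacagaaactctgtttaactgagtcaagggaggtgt

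The Cxcl10 match began 213 bases before the start, and the Ifit3 and Ifit1 windows each held 3 matches. Among all genes called higher, 60 of 434 with a window held the letters (13.8%), and among those in neither interferon list 41 of 402 did (10.2%). Among genes called lower it was 55 of 602 (9.14%). The letters of the cAMP response element, TGACGTCA, which ATF and CREB factors bind, were found for 12 of 434 genes called higher (2.76%), 25 of 602 called lower (4.15%) and 359 of 10740 tested (3.34%). No match of one motif overlapped a match of the other. These are counts of letters in a window, and no binding was measured.

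Genes that interferon-γ induces most strongly held the largest changes of the comparison. Of 24 tested, 15 rose, where 4.36% of all genes rose, and the median change of the 24 was 0.47. Cxcl10, a chemokine that attracts T cells and NK cells through CXCR3, stood at 10.91, 11.27, 11.22 and 9.98 in LPS arrays, against 9.55, 9.92, 8.29 and 8.70 in PBS arrays. It was 3.31-fold higher, a log2 difference of 1.73 (SE 0.35, adjusted p = 0.0128), and LPS replicate 4, the lowest of its group, was barely above PBS replicate 2, the highest of its group. Cxcl9, a chemokine of the same receptor, stood at 9.53, 9.87, 9.75 and 9.14 in LPS arrays, against 7.92, 8.39, 7.89 and 8.21 in PBS arrays. It was 2.77-fold higher, a log2 difference of 1.47 (SE 0.31, adjusted p = 0.014), with no overlap between groups. Both chemokines had an exact permutation p of 0.0286. Groups that do not overlap fix this value, so it adds nothing to the lack of overlap. Without LPS replicate 2 the Cxcl10 change was 1.59 and the Cxcl9 change 1.37, each with an adjusted p of 0.0656.

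Guanylate-binding proteins are GTPases that attack the vacuoles of intracellular microbes. Of the 8 tested genes of this family, which was set apart after its values were seen, 7 were called higher, where 4.36% of all genes were, with a median change of 0.79. Gbp2b stood at 8.29, 8.64, 8.58 and 7.96 in LPS arrays, against 7.73, 7.18, 6.56 and 6.85 in PBS arrays, 2.43-fold higher (adjusted p = 0.0128). Gbp4 stood at 7.32, 7.83, 8.12 and 7.30 in LPS arrays, against 6.79, 6.87, 6.27 and 6.44 in PBS arrays, 2.07-fold higher (adjusted p = 0.0221). In both genes PBS replicate 3 was the lowest array. Gbp9 averaged 8.05 ± 0.26 in LPS arrays and 7.15 ± 0.23 in PBS arrays (SD, n = 4 each), a change of 0.91 (adjusted p = 0.015). Iigp1, an immunity-related GTPase, averaged 8.40 ± 0.16 in LPS arrays and 7.03 ± 0.56 in PBS arrays (SD, n = 4 each), a change of 1.37 (adjusted p = 0.0179). Batf2, a transcription factor induced in activated macrophages, changed by 0.44 (adjusted p = 0.0128), and Socs1, the feedback inhibitor of interferon receptors, by 0.25 (adjusted p = 0.0301). Probe sets of near-identical members of the guanylate-binding and GTPase families can share transcripts, so that single members are less certain than the family. The median of the interferon-γ list was 0.48 without LPS replicate 2, and 3 of its genes were called without PBS replicate 3. Against WT, 12 of the 24 were higher after LPS, and 9 without LPS replicate 2.

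**Figure D3:**
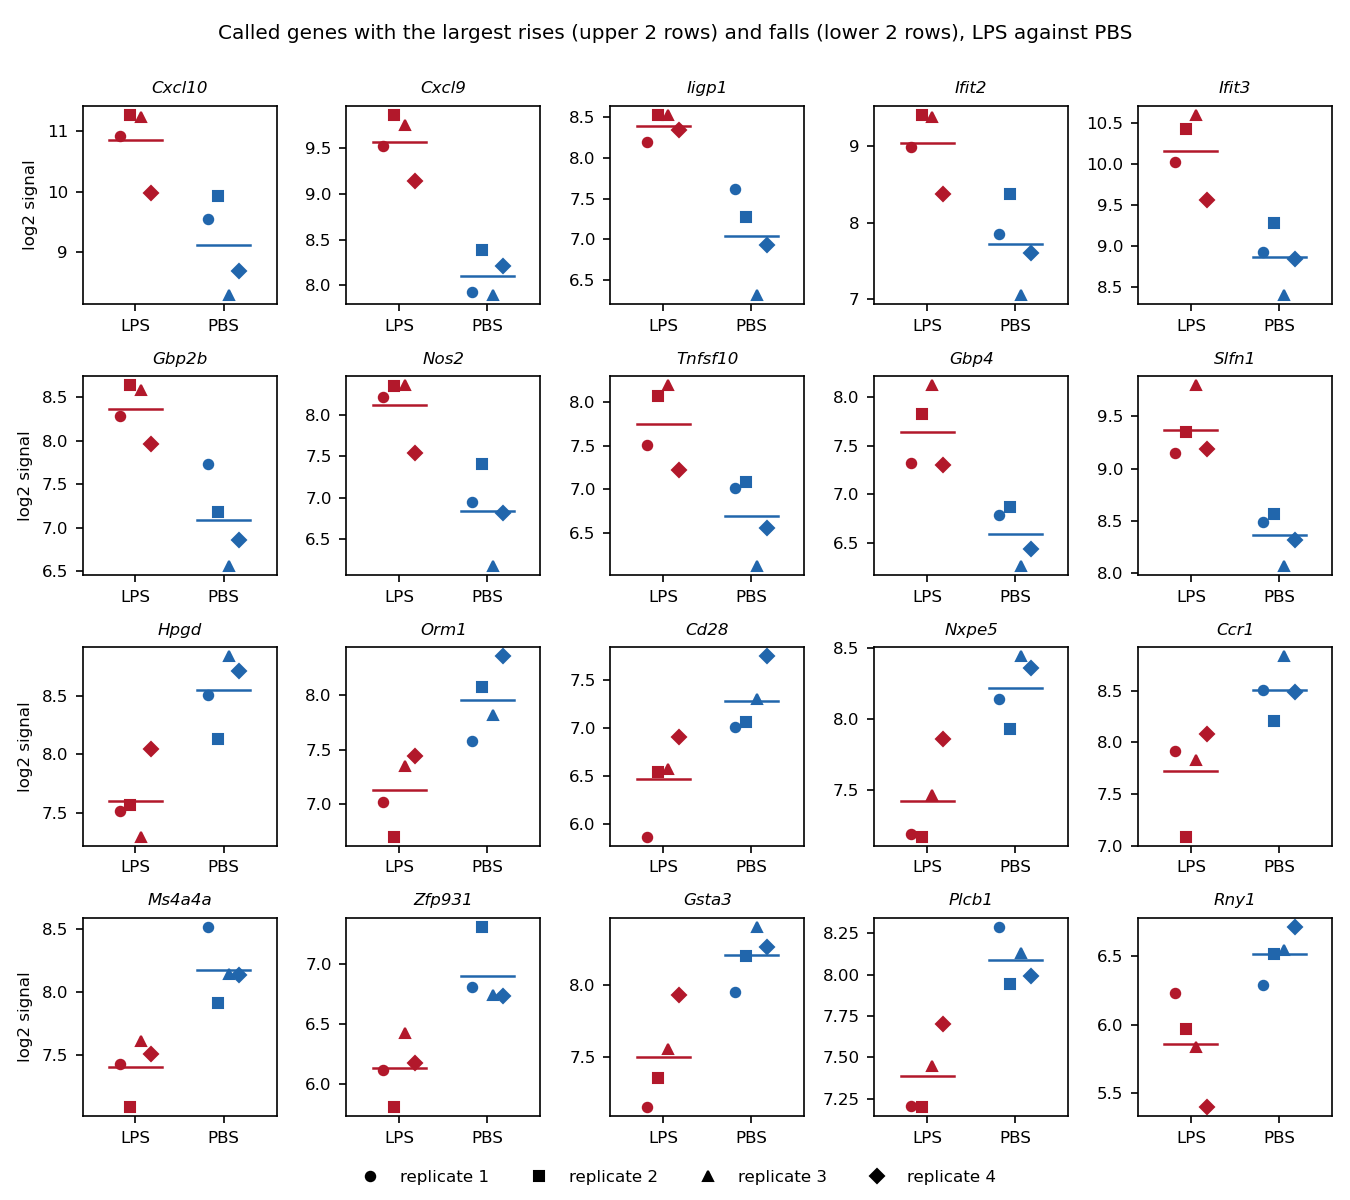
Log2 signal (y axes) of the 10 called genes with the largest rises and the 10 with the largest falls among those whose groups do not overlap, in LPS arrays (left, red) and PBS arrays (right, blue), with lines at the group means and a marker shape for each replicate. PBS replicate 3 is the lowest PBS array in most of the upper 2 rows, and Cxcl10 has the largest rise, 1.73, and Hpgd the largest fall, -0.94.

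Of 18 tested genes of antigen presentation on MHC class I, 9 rose and 1 fell, where 4.36% of all genes rose and 5.52% fell, with a median change of 0.23. Nlrc5, the transcriptional activator of class I genes, stood at 10.10, 10.25, 10.18 and 10.21 in LPS arrays, against 9.90, 9.85, 9.73 and 9.84 in PBS arrays, a change of 0.36 (adjusted p = 0.0137). Tap2, a subunit of the peptide transporter, stood at 8.63, 8.76, 8.75 and 8.70 in LPS arrays, against 8.33, 8.42, 8.37 and 8.45 in PBS arrays, a change of 0.32 (adjusted p = 0.0128). The groups of both genes did not overlap. The class I molecule H2-T24 changed by 0.64 (adjusted p = 0.0197), the peptide-loading factor Tapbpl by 0.37 (adjusted p = 0.0222), and the chaperone Pdia3 fell by 0.25 (adjusted p = 0.0336). Of the 12 class II genes none passed limma's test, and none had an unadjusted p under 0.05. Ciita, their master activator, averaged 7.90 ± 0.27 in LPS arrays and 7.81 ± 0.15 in PBS arrays (SD, n = 4 each), a difference of 0.10 (adjusted p = 0.485), and the exact permutation p was 0.6. Against WT, 8 of the 18 class I genes and 3 of the 12 class II genes were higher after LPS, where 6.39% of all genes were. None of either list was lower.

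Of 24 genes of LPS recognition and TLR4 signalling, limma called none, where 9.88% of all genes were called. An unadjusted p under 0.05 was found for 6 of them, 2 higher and 4 lower, and for 4453 of all 13512 genes. Tlr4 stood at 8.83, 8.55, 8.75 and 8.94 in LPS arrays, against 9.05, 8.96, 8.80 and 8.95 in PBS arrays, a difference of -0.17 (adjusted p = 0.146). Its co-receptor Ly96 stood at 11.38, 11.20, 11.38 and 11.37 in LPS arrays, against 11.58, 11.59, 11.44 and 11.42 in PBS arrays, a difference of -0.18 (adjusted p = 0.0747). The groups overlapped for Tlr4 and lay just apart for Ly96. Cd14 averaged 11.11 ± 0.18 in LPS arrays and 11.29 ± 0.11 in PBS arrays (SD, n = 4 each), a difference of -0.18 (adjusted p = 0.113). Of 27 other pattern recognition receptors, 4 fell, where 5.52% of all genes fell. Among them were Tlr7, the receptor of imiquimod and single-stranded RNA, with 10.90, 10.87, 10.90 and 10.95 in LPS arrays, against 11.07, 11.07, 11.12 and 11.13 in PBS arrays, a change of -0.19 (adjusted p = 0.0324), and Clec4d, a C-type lectin for mycobacterial glycolipid, with a change of -0.19 (adjusted p = 0.0128). Clec4n, the lectin dectin-2, fell by 0.74 (adjusted p = 0.021) although LPS replicate 4 lay above PBS replicate 1 and replicate 2, and the inflammasome sensor Nlrp1b fell by 0.29 (adjusted p = 0.0367).

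Among inflammatory cytokines and chemokines, 5 of 29 tested rose, where 4.36% of all genes rose, and the median change was 0.13. Tnfsf10, the death ligand TRAIL, had the largest of these, with 7.51, 8.07, 8.19 and 7.23 in LPS arrays, against 7.01, 7.09, 6.12 and 6.55 in PBS arrays, 2.08-fold higher (adjusted p = 0.0151). Ccl5, a chemokine for T cells and monocytes, stood at 12.49, 12.62, 12.61 and 12.54 in LPS arrays, against 12.22, 12.42, 11.98 and 12.05 in PBS arrays, a change of 0.40 (adjusted p = 0.044). Groups did not overlap for these 2 genes. The neutrophil chemokine Cxcl1, the cytokine subunit Il27 and the macrophage growth factor Csf1 changed by 0.35 (adjusted p = 0.0238), 0.24 (adjusted p = 0.0333) and 0.28 (adjusted p = 0.038), each with 1 LPS array inside the range of the PBS arrays. Tnf averaged 10.09 ± 0.11 in LPS arrays and 9.75 ± 0.19 in PBS arrays (SD, n = 4 each), a difference of 0.34 (adjusted p = 0.0622), and the exact permutation p was 0.0571. Il1b, Cxcl2 and Ccl3, further products of acute LPS stimulation, differed by -0.06 (adjusted p = 0.83), 0.19 (adjusted p = 0.368) and 0.13 (adjusted p = 0.156), within the spread of the arrays. Of 25 NF-κB target and feedback genes 2 rose, where 4.36% of all genes rose. They were the adhesion molecule Icam1 and the receptor Cd40, by 0.35 (adjusted p = 0.048) and 0.34 (adjusted p = 0.038), both with overlapping groups. Il6 was at background and was not tested.

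Of 12 tested genes of arginine and itaconate metabolism 2 rose and 3 fell, where 4.36% of all genes rose and 5.52% fell, and the median change was -0.02. Nos2, which makes nitric oxide from arginine in activated macrophages, stood at 8.21, 8.35, 8.36 and 7.54 in LPS arrays, against 6.94, 7.41, 6.18 and 6.82 in PBS arrays, and was 2.42-fold higher, a log2 difference of 1.28 (SE 0.31, adjusted p = 0.0201). Slc7a2, the arginine transporter that supplies it, stood at 9.88, 9.94, 10.06 and 9.59 in LPS arrays, against 9.36, 9.26, 9.22 and 9.03 in PBS arrays, a change of 0.65 (adjusted p = 0.0178). Arg2, the mitochondrial arginase that competes for arginine, stood at 10.30, 10.14, 10.31 and 10.36 in LPS arrays, against 10.76, 10.66, 10.80 and 10.77 in PBS arrays, and fell by 0.47 (adjusted p = 0.0144). None of these 3 genes had overlapping groups. Odc1 and Sat1, enzymes of polyamine turnover, fell by 0.37 (adjusted p = 0.0367) and 0.18 (adjusted p = 0.0381). Another probe set of Odc1 differed by -0.20 (limma over all kept probe sets, adjusted p = 0.16). Arg1, the arginase of alternative activation, differed by -0.16 (adjusted p = 0.453). The WT means were 7.30 for Nos2 and 10.54 for Arg2, each between the LPS and the PBS mean, and neither differed from LPS arrays by limma's test (adjusted p = 0.105 for Nos2 and 0.108 for Arg2).

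Of 16 genes of iron and haem handling, 2 rose and 3 fell, where 4.36% of all genes rose and 5.52% fell. Hp, which encodes the haemoglobin scavenger haptoglobin, stood at 11.56, 11.55, 11.67 and 11.35 in LPS arrays, against 11.34, 11.32, 10.89 and 10.78 in PBS arrays, a change of 0.45 (adjusted p = 0.014), with no overlap. Hpx, the haem carrier haemopexin, was at least 1.08-fold higher, since its PBS arrays were all under the background level. Spic, the transcription factor of haem-recycling macrophages, fell by 0.42 (adjusted p = 0.0263), and Ncoa4, the receptor for ferritin degradation, fell by 0.28 (adjusted p = 0.0421). Steap3, a ferrireductase of endosomes, changed by -0.23 (adjusted p = 0.043) with overlapping groups. Of 39 lysosome and autophagy genes 6 fell, where 5.52% of all genes fell, and the median was -0.09. With only the 8 compared arrays in the fit 1 of them was called, as without LPS replicate 1 or without PBS replicate 4. Limma called none without LPS replicate 2 and none without PBS replicate 3. In these fits 11 and 8 were lower at an unadjusted p under 0.05, as were 1470 and 1774 of all 13512 genes. The 6 that fell were Gla, Tpp1, Ctsb, Ctsd, Lamp2 and Atg12. Against WT the list did not fall: 7 of the 39 were higher after LPS and 2 lower, with a median of 0.02. Of all 13512 genes 863 were higher than WT and 376 lower. The peptidase Tpp1 stood at 11.19, 11.20, 11.21 and 11.30 in LPS arrays, against 11.37, 11.39, 11.48 and 11.41 in PBS arrays, a change of -0.19 (adjusted p = 0.0198). The protease Ctsd averaged 12.74 ± 0.06 in LPS arrays and 12.89 ± 0.09 in PBS arrays (SD, n = 4 each), a change of -0.15 (adjusted p = 0.0287) with overlapping groups. Of 27 NRF2 antioxidant genes 3 fell, where 5.52% of all genes fell. Changes were below 0 for 24 of the 27, with a median of -0.11, and for 7280 of all 13512 genes. With only the 8 compared arrays in the fit 1 of the 27 was called, and none without LPS replicate 2 or without PBS replicate 3. Prdx1, a peroxide-reducing enzyme, stood at 12.31, 12.28, 12.39 and 12.22 in LPS arrays, against 12.41, 12.62, 12.56 and 12.52 in PBS arrays, a change of -0.23 (adjusted p = 0.0192), and Gclm, of glutathione synthesis, and Mgst1, a glutathione transferase, fell by 0.30 and 0.20.

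The falls given first are the 10 largest for which the test was passed and all LPS arrays lay below all PBS arrays. Hpgd, which inactivates prostaglandins, stood at 7.52, 7.57, 7.30 and 8.04 in LPS arrays, against 8.50, 8.13, 8.84 and 8.71 in PBS arrays, and was 1.91-fold lower, a log2 difference of -0.94 (SE 0.22, adjusted p = 0.0179). Orm1, an acute-phase plasma protein, stood at 7.02, 6.71, 7.36 and 7.44 in LPS arrays, against 7.58, 8.08, 7.82 and 8.36 in PBS arrays, and was 1.77-fold lower, a log2 difference of -0.83 (SE 0.18, adjusted p = 0.0144). The WT mean of Hpgd was 7.51, near that of the LPS arrays, and the WT mean of Orm1 was 7.49, between both. Ccr1, a receptor for Ccl3 and Ccl5, averaged 7.73 ± 0.44 in LPS arrays and 8.51 ± 0.26 in PBS arrays (SD, n = 4 each), 1.72-fold lower (adjusted p = 0.0211), and LPS replicate 2 was its lowest array. Ms4a4a, a membrane protein of macrophages, stood at 7.43, 7.09, 7.61 and 7.51 in LPS arrays, against 8.51, 7.91, 8.14 and 8.13 in PBS arrays, and was 1.7-fold lower, a log2 difference of -0.77 (SE 0.18, adjusted p = 0.018). Plcb1, a phospholipase C, averaged 7.39 ± 0.24 in LPS arrays and 8.09 ± 0.16 in PBS arrays, 1.62-fold lower (adjusted p = 0.0128). Ms4a4a and Plcb1 were also lower than in WT arrays, with WT means of 8.03 and 7.89 (adjusted p = 0.0285 and 0.0144). Zfp931, a zinc finger gene, averaged 6.13 ± 0.25 in LPS arrays and 6.90 ± 0.28 in PBS arrays (SD, n = 4 each), a change of -0.77 (adjusted p = 0.0239), with 1 LPS array and all 4 PBS arrays above background. Gsta3, a glutathione transferase, was 1.63-fold lower and Nxpe5 1.74-fold lower, the T cell costimulatory receptor Cd28 was 1.75-fold lower, and Rny1, a small Y RNA, was at least 1.15-fold lower, since all its LPS arrays lay under the background level. The coagulation factor F13a1 and the mannose receptor Mrc1, which are also markers of monocyte-derived cells, fell by 0.60 (adjusted p = 0.0143) and 0.59 (adjusted p = 0.0227). Their WT means were 8.41 and 7.10, close to the LPS means of 8.31 and 7.32. Of the 14 tested markers of monocyte-derived cells these were the only 2 called. The changes of the 14 were above 0 for 6 and below 0 for 8, with a median of -0.02.

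**Figure D4:**
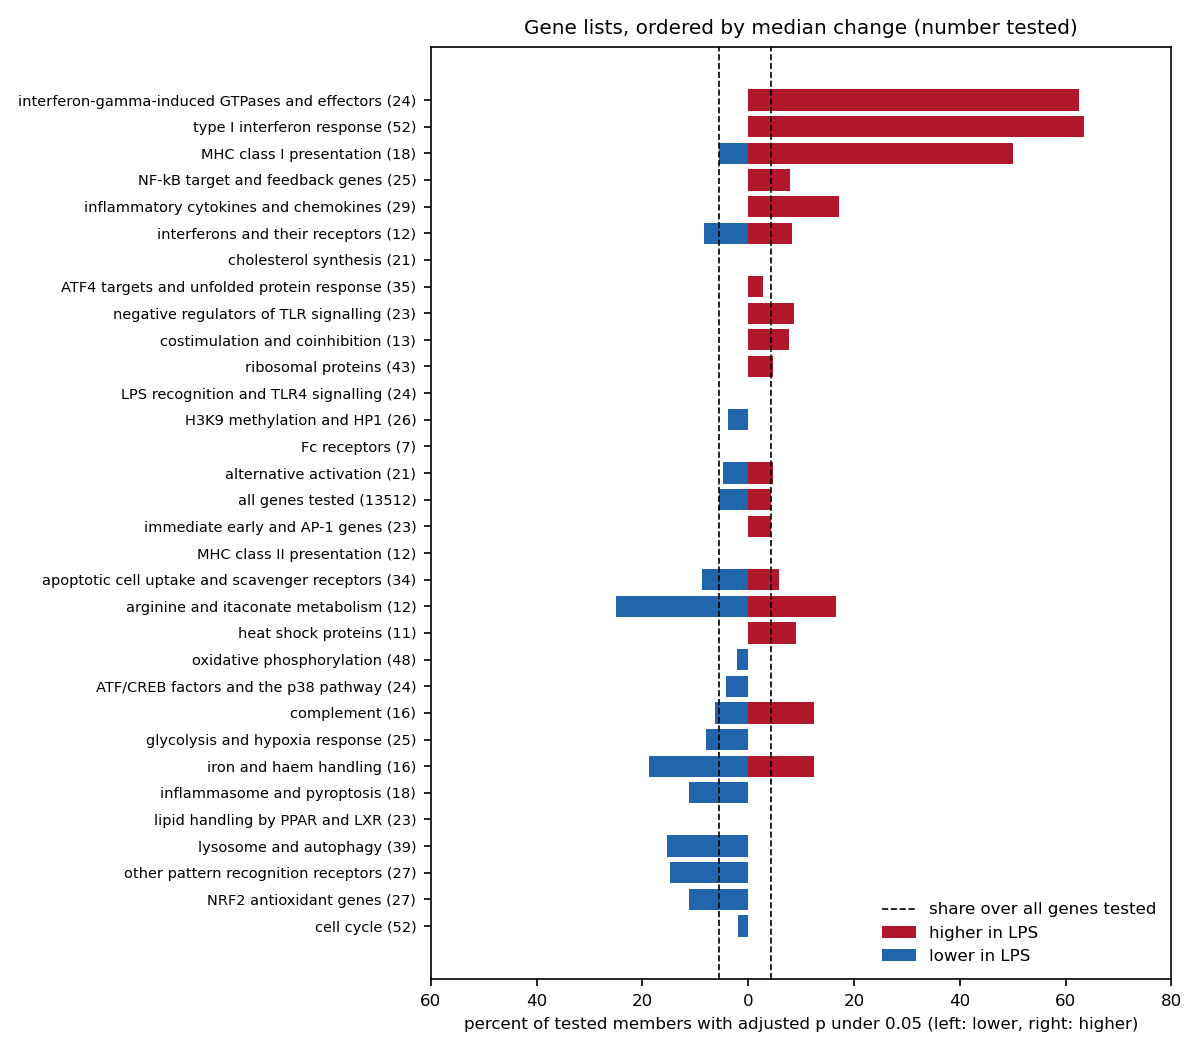
Percent of the tested members of each gene list with an adjusted p under 0.05 (x axis, higher after LPS to the right, lower to the left), for the lists of processes with at least 5 tested members, ordered by median change. The dashed lines mark 4.36% higher and 5.52% lower over all genes tested, and the interferon and MHC class I lists stand out to the right.

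Of 34 genes of uptake of dying cells 2 rose and 3 fell, near the 4.36% and 5.52% of all genes. Axl, a receptor for dying cells, stood at 10.23, 10.34, 10.36 and 10.33 in LPS arrays, against 9.75, 10.09, 9.92 and 9.91 in PBS arrays, a change of 0.40 (adjusted p = 0.0425), with every LPS array above every PBS array. Gas6, the ligand that bridges dying cells to it, fell by 0.48 (adjusted p = 0.0348), and LPS replicate 3 and replicate 4 of Gas6 lay within the range of the PBS arrays. Adgrb1, a receptor for exposed phosphatidylserine, changed by 0.27 (adjusted p = 0.0356), and Scarb2, a lysosomal membrane protein, by -0.18 (adjusted p = 0.0271), both with groups apart. In complement, 2 of 16 genes rose and 1 fell, where 4.36% of all genes rose and 5.52% fell. Cfb, a factor of the alternative pathway, changed by 0.39 (adjusted p = 0.0286), C2, a component of the classical pathway, by 0.39 (adjusted p = 0.0496) with 1 of 4 PBS arrays above background, and Cr1l, a membrane regulator of complement, by -0.30 (adjusted p = 0.045). Of 24 ATF/CREB and p38 pathway genes 1 passed: Atf2 fell by 0.15 (adjusted p = 0.0495). Atf7, the factor that the series studies, averaged 10.81 ± 0.04 in LPS arrays and 10.71 ± 0.11 in PBS arrays (SD, n = 4 each), a difference of 0.09 (adjusted p = 0.157). A dimmer probe set of Atf7 differed by -0.05 (limma over all kept probe sets, adjusted p = 0.692). Of 26 genes of H3K9 methylation and HP1 proteins, Cbx3 fell by 0.18 (adjusted p = 0.0469). Of 52 cell cycle genes Gins1, a subunit of the replication helicase, fell by 0.29 (adjusted p = 0.0338) with 1 LPS array above background. Changes were below 0 for 41 of the 52, with a median of -0.15, and for 7280 of all 13512 genes. Against WT none of the 52 was called, and their median was 0.04.

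The lists that follow held 1 or 2 called genes each, most of them changed by less than 0.4, where 9.88% of all genes were called. None was called among 21 genes of cholesterol synthesis, 23 of lipid handling by PPAR and LXR and 7 Fc receptors. Of 25 glycolysis and hypoxia genes, Pdk1, a kinase that holds pyruvate out of the mitochondrion, stood at 7.74, 7.81, 8.06 and 7.95 in LPS arrays, against 8.23, 8.26, 8.08 and 8.18 in PBS arrays, a change of -0.30 (adjusted p = 0.0158), and Ero1a, an oxidase of the endoplasmic reticulum, changed by -0.18 (adjusted p = 0.0337). The groups of these 2 genes did not overlap. Of 48 oxidative phosphorylation genes, Ndufc1, a subunit of complex I, changed by -0.16 (adjusted p = 0.0495). A dimmer probe set of Ndufc1 differed by -0.09 (limma over all kept probe sets, adjusted p = 0.368). Of 35 ATF4 and unfolded protein response genes, Chac1, which degrades glutathione, changed by 0.27 (adjusted p = 0.0269), and of 11 heat shock genes Hspa1a, an inducible HSP70, by 0.36 (adjusted p = 0.0413). Of 18 inflammasome genes, Nlrp1b and Nek7, a kinase that takes part in NLRP3 activation, fell, Nek7 by 0.20 (adjusted p = 0.0237). Of 23 immediate early genes, Fosb, a subunit of AP-1, changed by 0.33 (adjusted p = 0.0287) with 1 of 4 PBS arrays above background. Of 21 alternative activation genes Ccl17, a chemokine for CCR4, stood at 8.05, 8.13, 8.66 and 8.07 in LPS arrays, against 7.58, 7.74, 7.65 and 7.74 in PBS arrays, a change of 0.55 (adjusted p = 0.0442), and Mrc1 fell. Every LPS array of Ccl17 lay above every PBS array. Of 43 ribosomal protein genes, Rpl36 and Rplp1 changed by 0.16 (adjusted p = 0.0232) and 0.15 (adjusted p = 0.044). A dimmer probe set of Rplp1 differed by 0.02 (limma over all kept probe sets, adjusted p = 0.839).

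The cells carried the genes of resident peritoneal macrophages in both groups. All 32 markers of large peritoneal macrophages with a probe set were above background, and their summed linear signals ran from 90917 to 103880 in LPS arrays and from 88937 to 106120 in PBS arrays. Of these 32 markers 2 were called higher, where 4.36% of all genes were, and none lower. Their changes were above 0 for 15 and below 0 for 17, with a median of -0.02. Icam2 and Rarb rose, by 0.26 (adjusted p = 0.0324) and 0.28 (adjusted p = 0.0275), and Gata6, the factor that sets peritoneal identity, averaged 10.51 ± 0.18 in LPS arrays and 10.35 ± 0.23 in PBS arrays, a difference of 0.16 (adjusted p = 0.326). In bulk RNA, fewer cells of a type and less RNA per cell cannot be told apart. B cell markers summed to 11465 to 12289 in LPS arrays and 11685 to 13651 in PBS arrays, with 19 of 23 above background, and with their mean as a covariate 1328 genes were called. T cell markers summed to 6821 to 7411 in LPS arrays and 5097 to 6539 in PBS arrays, and NK cell markers to 6297 to 6880 in LPS arrays and 4559 to 5986 in PBS arrays. The T cell genes Cd3d, Cd3g, Cd4 and Cd8b1 and the NK cell genes Ncr1, Klrb1c, Gzma and Gzmb were at background on all 8 arrays, and Ccl5, which both lists hold, made up most of both sums. Of the 9 T cell markers tested 8 had a change above 0: Cd247, a signalling chain of the T cell receptor, was called at least 1.06-fold higher (adjusted p = 0.0366), with 3 LPS arrays and no PBS array above background, Ccl5 was called higher and Cd28 lower. All 3 NK cell markers tested had a change above 0, and Tbx21, the factor T-bet, changed by 0.22 (adjusted p = 0.0428) with 4 LPS arrays and 1 PBS array above background. Neutrophil markers summed to 5307 to 5574 in LPS arrays and 5157 to 5706 in PBS arrays, with Ly6g and S100a9 at background. Monocyte-derived cell markers summed to 3903 to 4342 in LPS arrays and 3795 to 5133 in PBS arrays, with 14 of 16 above background in LPS arrays. Mesothelial and fibroblast markers summed to 1763 to 2076 in LPS arrays and 1605 to 1780 in PBS arrays, and Msln and Col1a1 among them rose by 0.23 and 0.25. In the other marker lists the dendritic cell factor Zbtb46 changed by 0.24 (adjusted p = 0.021), the mast cell and basophil enzyme Hdc by 0.41 (adjusted p = 0.049), the erythroid anion exchanger Slc4a1 by 0.28 (adjusted p = 0.0415) and, of the B cell list, Bhlhe41 by -0.48 (adjusted p = 0.0462), while Vpreb3 was at least 1.02-fold higher (adjusted p = 0.0496). Their part in the results was not tested.

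The direction of change went with the level of the gene. Among 3595 genes with a mean log2 level up to 7, 309 were called higher and 56 lower, with a median change of 0.12. Among genes above 8, 143 were called higher and 531 lower, and the medians lay between -0.06 and -0.05. Against WT the medians of the same bins lay between -0.01 and 0.03. Odorant and vomeronasal receptor genes, which macrophages are not known to transcribe, were called higher for 18 of 110 tested, with a median of 0.16. MicroRNA probe sets were called higher for 16 of 115, with a median of 0.14, where 4.36% of all genes were. Genes tested had passed the background level, the 95th percentile of 1210 odorant and vomeronasal probe sets, on at least 4 of 28 arrays. This can favour members high in a single group, so these counts and medians may be partly set by the filter. The mean level of all odorant and vomeronasal probe sets was 4.91 ± 0.05 in LPS arrays, 4.83 ± 0.03 in PBS arrays and 4.95 ± 0.11 in WT arrays (SD, n = 4 each). With this mean as a covariate limma called 12 genes, and none of the type I interferon, interferon-γ and MHC class I lists, of which 33, 15 and 9 had been called higher. In this fit 39, 19 and 12 of their members were higher at an unadjusted p under 0.05, as were 1417 of all 13512 genes. The median of the type I interferon list was 0.43. The interferon genes had medians of 0.42 for 16 genes at 8 to 9, 0.59 for 23 at 9 to 10 and 0.29 for 10 above 10. The bins up to 7 and 7 to 8 held 1 and 2 interferon genes, too few to judge the list at these levels.

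**Figure D5:**
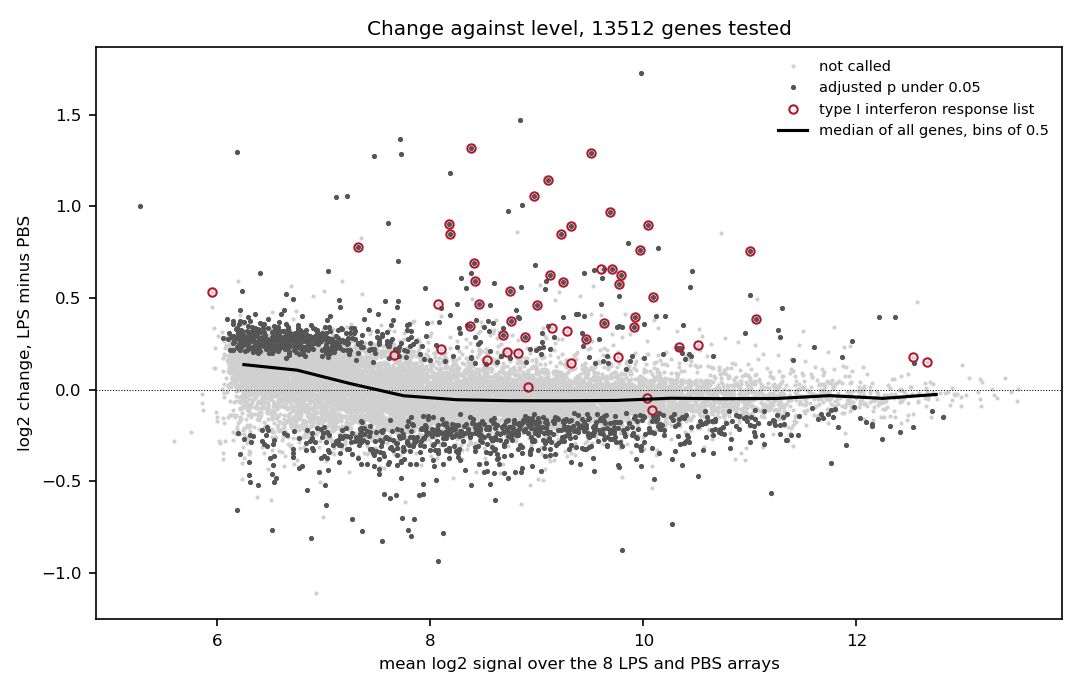
Change (y axis, log2, LPS minus PBS) against mean log2 signal over the 8 arrays (x axis) for the 13512 genes tested, with called genes dark, the type I interferon list circled in red and the running median as a line. The line lies above 0 for dim genes and just under 0 for bright ones. Most circles lie above the line, and few circles are at dim levels.

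Set against the mean of the other 3 ligands at the same time, 3411 genes differed (25.2%), 1231 of them higher after LPS (9.11%). Of the type I interferon list 8 of 52 members were higher after LPS than after these ligands, with a median difference of 0.19, and of the interferon-γ list 9 of 24, with a median of 0.29. The type I count depended on single arrays: it was 2 without LPS replicate 2, 2 without LPS replicate 3 and 15 without LPS replicate 4. Cxcl9 stood 0.90 above the mean of the other ligands (adjusted p = 0.012) and Nos2 0.94 (adjusted p = 0.00867), while Cxcl10 stood 0.75 above (adjusted p = 0.0519). Arg2, lower than in PBS arrays, was 0.45 higher than after the other ligands (adjusted p = 0.000417). Gata6 was 0.46 higher (adjusted p = 0.00125) and Il1b 0.55 higher (adjusted p = 0.00432) than after the other ligands. Odorant and vomeronasal probe sets averaged 4.91 ± 0.05 in LPS arrays, 4.75 ± 0.07 in PGN arrays, 4.73 ± 0.07 in IMQ arrays and 4.81 ± 0.03 in BG arrays, and with their mean as a covariate 612 genes differed. The labels give no batch, and ligand and array handling cannot be told apart. Against WT, 1239 genes differed (9.17%), 863 of them higher after LPS (6.39%) and 376 lower. Most calls against PBS were not made against WT. Of the 589 genes called higher than PBS, 93 were also called higher than WT and 1 was called lower. Of the 746 genes called lower than PBS, 54 were also called lower than WT and 25 were called higher.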

How the data were processed

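Resident peritoneal macrophages were measured on Affymetrix arrays, 4 in each of 7 groups. Groups came from the titles, and the labels call the 4 samples of a group independent. Per the labels' protocols, RNA was extracted with Trizol, and 100 ng was amplified with the WT Expression Kit. The deposited values are linear intensities, 1 for every probe set on every array, which the authors made with RMA in Affymetrix Expression Console, per the submitters' processing notes. RMA corrects background, gives all arrays 1 distribution and summarises probes, so a value is relative to the other probe sets of its array. Neither the software version nor the genome build is given in the sources used here.

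The log2 of these intensities was taken here. Of 35556 probe sets, 21789 have 1 gene symbol, 1621 several and 12146 none in the platform table, and those with several or none were left out. As a background floor served the 95th percentile over 1210 odorant and vomeronasal receptor probe sets, at log2 6.32 or a signal of 80.04. Those above it on at least 4 of 28 arrays were kept (14800 probe sets), and the brightest one stood for its gene, which left 13512 genes. Other kept probe sets of a called gene were not always called. A fold against a group wholly under the floor is given as a bound, set against the floor. The number of arrays limits the precision.

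The test was limma's moderated test (limma 3.58.1, R 4.3.3), with 1 mean per group over all 28 arrays, an intensity trend and Benjamini-Hochberg adjustment within each comparison. Exact two-sided permutation tests over 70 arrangements were run for single genes. Replicate numbers were not taken as pairs: deviations from the group means of same-numbered LPS and PBS arrays correlated at 0.31, 0.04, -0.20 and 0.45. The procedure was tested on simulated data. Promoter windows came from RefSeq (GRCm38.p6) and covered 10740 of the genes tested. Matplotlib 3.10.9 under Python 3.11.15 drew the figures.

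The 42 gene lists (11 of them cell type markers) and the genes compared were chosen with earlier results of these data known. The text names the 10 called genes with the largest rises and the 10 with the largest falls whose groups do not overlap, up to 4 genes with the smallest p of each list with a call, all called genes of a list with at most 5 in a direction, and the fixed genes tested. Of the 159 genes so chosen the 95 called ones are named, and most that missed the test are only counted with their lists. The text says where a gene was named after its values were seen. The genes shown for their promoters follow the rule given there. Predicted genes and odorant, small nucleolar and microRNA probe sets were not named by this rule. Alternatives covered the dim filter, normalisation, log scale, probe set choice, variance model, array weights, replicate block, B cell covariate and single arrays. Adjusting for odorant signal and cyclic loess normalisation were added after seeing the data.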

Additional observations from a re-analysis of the deposited data

Results flagged for a closer look

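For each gene given with a value, the 4 LPS arrays and the 4 PBS arrays were searched for 1 array far from the other 3 by Dixon's test at the 95% level. Of these 246 groups 11 had such an array, where chance flags about 1 in 20, which would be 12.3. In LPS arrays, Ly96 stood at 11.20 on replicate 2, against 11.37 to 11.38 on the others. Col1a1 stood at 8.10 on LPS replicate 2, against 7.75 to 7.79 on the others. Gclm stood at 11.97 on LPS replicate 4, against 11.65 to 11.70. Pam16 stood at 8.89 on LPS replicate 3, against 8.82 on the others, and Ccl17 at 8.66 on LPS replicate 3, against 8.05 to 8.13. In PBS arrays, Odc1 stood at 7.28 on replicate 2, against 7.12 to 7.13 on the others. Pdia3 stood at 11.08 on PBS replicate 1, against 11.20 to 11.21. Nr1d2 stood at 9.05 on PBS replicate 4, against 9.38 to 9.42, and Slfn4 at 10.04 on PBS replicate 4, against 9.64 to 9.67. Nek7 stood at 10.27 on PBS replicate 4, against 10.44 to 10.45, and Zfp931 at 7.31 on PBS replicate 2, against 6.73 to 6.80. Of these 11 values 5 lay in LPS arrays and 6 in PBS arrays, and no array held more than 3 of them.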

How the results depend on the processing

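Leaving out 1 LPS or PBS array at a time gave 4 to 1558 called genes in LPS against PBS, 1 to 711 of them higher and 3 to 962 lower, with the lowest values without LPS replicate 2 and the next lowest, 172 (87 higher, 85 lower), without PBS replicate 3. It gave 1848 to 3485 genes against the other ligands, the lowest without LPS replicate 2, and 969 to 1283 against WT. With only the arrays of the groups compared in the fit, 508 genes were called (258 higher, 250 lower) and 346 against WT, a fit with fewer arrays to estimate the spread. The stricter filter left 274 genes higher, with 676 lower. Centring each array on its median gave 385 higher and 1219 lower, and repeated quantile normalisation 863 in all with 440 lower. Estimated array weights gave 2018, 1201 of them lower, and 671 against WT. Cyclic loess normalisation, added after seeing the data, gave 371 higher. The odorant covariate, also added after seeing the data, gave 12 (5 higher, 7 lower) and 612 against the other ligands. Apart from fewer genes or arrays in a fit, the cause was not tested. Without any filter 742 were higher and 631 lower. The replicate block gave 1438 (618 higher, 820 lower), 3501 against the other ligands and 1267 against WT. The other counts stayed within 1.5 times of those reported. Of the 159 genes chosen for naming none that was called changed direction under an alternative that tested it, and the stricter filter tested 135 of them, 81 of the 95 called. With only the compared arrays 46 of the 95 kept their call, and with the odorant covariate 1. Of the 95, 48 kept their call without LPS replicate 1, none without LPS replicate 2, where the smallest adjusted p of all genes was 0.0453, and 22 without PBS replicate 3. With the type I interferon list, the median was 0.46 without a filter, 0.43 with the odorant covariate and 0.47 with cyclic loess normalisation. With the covariate no member was called, and 39 were higher at an unadjusted p under 0.05, as were 1417 of all 13512 genes. Signals near the floor limit what can be said of dim genes, and 4 arrays a group limit all calls.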

Other observations

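Clock genes were not among the lists, and they were looked at after their values were seen. Of 16 tested, 2 rose and 2 fell, with a median change of -0.04. Nr1d1, the haem-binding repressor of the circadian clock, stood at 10.25 on average in LPS arrays, 9.45 in PBS arrays and 10.08 in WT arrays, a change of 0.80 (limma, adjusted p = 0.0128), and its relative Nr1d2 changed by 0.24 (adjusted p = 0.0324). Arntl, the activator that Nr1d1 represses, fell by 0.34 (adjusted p = 0.0156). The labels used here give no time of day for the collection of cells, and its part in these values was not tested. Schlafen genes, which interferon induces, had 3 of 9 members called higher, with a median change of 0.32. Slfn1 averaged 9.37 in LPS arrays and 8.36 in PBS arrays, a change of 1.01 (adjusted p = 0.0201), and Slfn4 changed by 0.77 (adjusted p = 0.0276). Subunits of the vacuolar proton pump had 4 of 18 members called lower and 1 higher, with a median of -0.07. Of them Atp6v1d fell by 0.38 (adjusted p = 0.00896) and Atp6v1c1 by 0.42 (adjusted p = 0.0128). Of 18 glutathione transferase genes 4 fell, with a median of -0.15, and of 297 zinc finger genes of the Zfp kind 3 rose and 16 fell, with a median of -0.05. All of these groups were also chosen after their values were seen. Over all genes tested 4.36% rose and 5.52% fell.

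The probe set of Mir155, a microRNA that LPS induces in macrophages, averaged 7.39 in LPS arrays, 6.90 in PBS arrays and 7.15 in WT arrays, a change of 0.49 (adjusted p = 0.0189). Of 115 microRNA probe sets 16 rose, with a median of 0.14, where 4.36% of all genes rose.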
